A study of Mus musculus with 12 samples.

Results

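Heat shock chaperones are proteins that keep other proteins folded, and 10 of their genes were followed here in mouse spinal cord shortly after injury. They are Hspb1, Hspb8 and Cryab (small heat shock proteins), Hspa1b, Hspa8, Hsph1 and Dnajb1 (the HSP70 system with its HSP110 and J-domain partners), Hsp90aa1 (HSP90), and Hspd1 and Hspe1 (the mitochondrial chaperonin and its cofactor). Every probe set of the array table whose only gene symbol was one of these names was used, which gave 25 of 20380 probe sets that name a single gene, and 10 of 12393 genes. The classes held 8, 11, 3 and 3 probe sets, and 9 of the 10 genes had 2 or more. No probe set was left out for a low level. Of the 25, 24 would have passed a filter asking for 3 or more arrays above the array's own 25th percentile.

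The arrays came from wild-type female C57BL/6 mice aged 10 weeks. Injured mice had 80% of the spinal cord cut through after laminectomy, and control mice had the laminectomy alone; the sample titles call the controls naive and the design calls them sham, which is the word used here. Cord was taken 9 hours later as a 2.5 cm piece around the site and broken up in a Dounce homogenizer; a small aliquot gave total RNA and from the rest a sucrose gradient yielded polysome-bound RNA, which is mRNA carrying several ribosomes. Each of the 4 groups (total sham, total injured, polysome sham, polysome injured) held 3 biological replicates, 12 arrays in all. Labelled cRNA was made from 5 µg of total or 3 µg of polysome-bound RNA. How many mice made up a replicate is not given in the labels. The tissue is bulk cord, so fewer cells of a type and less RNA per cell cannot be told apart.

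As background, chaperones work in relays. Small heat shock proteins hold unfolding proteins without using ATP. HSP70 proteins bind and release them in an ATP cycle that J-domain proteins start and that HSP110 proteins help to reset by exchanging the nucleotide. HSP90 finishes the folding of kinases and steroid receptors, and HSP60 with HSP10 forms a folding chamber in mitochondria. Many of these genes are switched on by heat shock factor 1, which binds repeats of the unit GAA and its reverse complement TTC near the start of transcription. In the nervous system, HSPB1 is known as a protein that neurons and glia raise after axotomy, and CRYAB is abundant in oligodendrocytes and astrocytes.

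Promoter windows from RefSeq (mouse build GRCm38.p6, 250 bases before to 50 bases after the start) were found for 7 of the 10 genes; Cryab, Hspa8 and Hsp90aa1 had none there. They were searched on both strands for 3 alternating heat shock units (GAANNTTCNNGAA) and, more loosely, for 2 (GAANNTTC or TTCNNGAA, which the longer motif also contains). The 3-unit motif was in the windows of 3 of the 7 genes, Hspd1, Hspe1 and Hsph1. Counted by windows, it was in 4 of the 10 of the members and in 0.603% of all 32851. Hspd1 and Hspe1 were both counted for a stretch that they share. The 2-unit motif was in 6 of the 7 genes, all but Dnajb1, in 7 of the 10 member windows and in 15.1% of all windows. TATAAA was in none of the member windows and in 13.6% of all. The sequences are shown for the members with the clearest changes below, with the heat shock units in capitals. The first is the stretch between a start of Hspd1, which runs leftwards, and the start of Hspe1, which runs rightwards. Both genes share it, at chr1:55087933-55088147, written on the plus strand. The capitals are 4 alternating units at positions -89 to -72 from the Hspe1 start, and -144 to -127 from that Hspd1 start. The other Hspd1 start in RefSeq lies beyond the Hspe1 start, and its window held no 2-unit match. The second is the 250 bases before Hspb1 (chr5:135887669-135887918, plus strand), with 2-unit matches that begin at positions -117 and -97 from the start. The third is the 250 bases before Hspa1b (chr17:34959239-34959488, minus strand), with a match that begins at position -104. A match describes the letters and is not a mapped site.
Hspd1-Hspe1: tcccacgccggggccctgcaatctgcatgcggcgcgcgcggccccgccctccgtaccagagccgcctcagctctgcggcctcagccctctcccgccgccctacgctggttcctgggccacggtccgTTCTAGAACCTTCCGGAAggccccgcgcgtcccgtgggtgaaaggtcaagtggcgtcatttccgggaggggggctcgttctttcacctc
Hspb1: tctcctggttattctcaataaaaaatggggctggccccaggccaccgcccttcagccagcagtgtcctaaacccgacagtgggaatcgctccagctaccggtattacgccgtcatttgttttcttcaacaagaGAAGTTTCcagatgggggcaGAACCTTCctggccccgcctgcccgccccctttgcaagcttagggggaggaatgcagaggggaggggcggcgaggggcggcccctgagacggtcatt
Hspa1b: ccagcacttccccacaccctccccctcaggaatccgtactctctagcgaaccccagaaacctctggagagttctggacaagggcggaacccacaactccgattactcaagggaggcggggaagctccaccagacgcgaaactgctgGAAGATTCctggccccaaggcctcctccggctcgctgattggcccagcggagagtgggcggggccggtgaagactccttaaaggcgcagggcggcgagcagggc

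Some facts of the arrays stand beside the results. Within groups the arrays correlated at 0.9938 to 0.998 over all probe sets. The values ran from 5.26 to 14.65 on the log2 scale, and the median of the arrays was lower in polysome-bound than in total RNA. The 3′ probe set of Gapdh exceeded its 5′ probe set by 0.23 ± 0.05 in total sham (SD, n = 3) and 1.40 ± 0.22 in total injured, and by 0.87 ± 0.03 in polysome sham and 2.83 ± 0.27 in polysome injured (exact two-sided permutation p = 0.1 in each fraction, the smallest that 3 arrays against 3 allow). For Actb the same difference went from 1.46 to 1.80 in total and from 1.68 to 3.26 in polysome-bound RNA (exact p = 0.1 in each). These 3′ to 5′ differences, a measure of how complete the labelled RNA is, moved with injury in both fractions, and their part in the changes below was not tested. The markers of neurons (7 of 7 genes measured), oligodendrocytes (5 of 5) and astrocytes (6 of 6) were above every control probe set for absent organisms on all arrays, whereas 2 of the 10 skeletal muscle markers were.

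In total RNA, transection raised 14 of the 25 chaperone probe sets and lowered 4 (limma, Benjamini-Hochberg adjusted p under 0.05); 7 did not pass the test. Hspb1 rose most, 7.29-fold, followed by the inducible Hspa1b at 1.59-fold to 1.78-fold, Hspb8 at 1.60-fold by its brightest probe set, and Hspd1, whose log2 change was 0.55. Cryab, a small heat shock protein like Hspb1, did not pass the test on any of its 3 probe sets. Over all 20380 probe sets 57.6% were called, 30.6% higher and 27.0% lower, against 72% of the members. The members' median log2 change was 0.27, against 0.01 over all probe sets. Sham and injured arrays did not overlap for 20 of the 25 members, and for 69.6% of all probe sets.

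**Figure D1:**
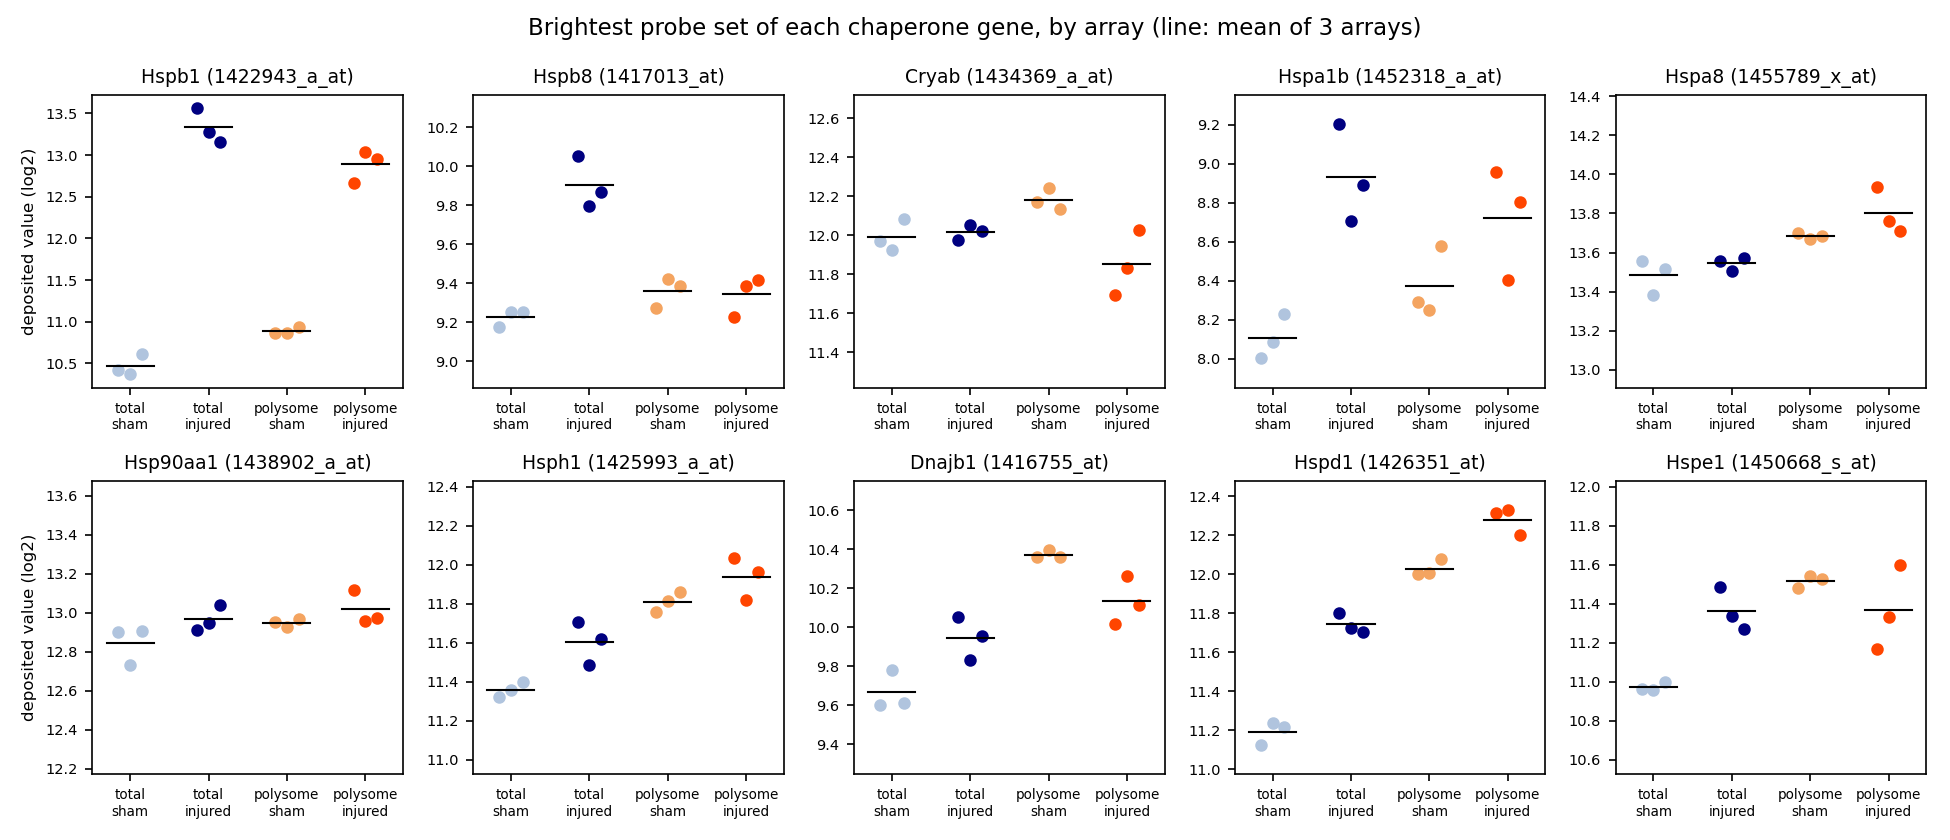
Deposited log2 value (vertical axis) of the brightest probe set of each of the 10 chaperone genes on the 12 arrays, in the 4 groups along the horizontal axis, with 1 point per array and a line at the mean of 3. Hspb1 separates injured from sham arrays in both fractions, Hspb8 and Hspa1b rise in total RNA, Cryab falls on polysomes, and the vertical range differs between panels.

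Among the small heat shock proteins, Hspb1 codes for HSP27, which binds unfolding proteins and actin. Its brightest probe set (1422943_a_at) read 10.42, 10.37 and 10.61 in total sham and 13.56, 13.28 and 13.16 in total injured, a log2 change of 2.87 (SE 0.10, adjusted p = 5.92e-10). The second, 1425964_x_at, read 9.81, 9.66 and 9.82 in sham and 13.03, 12.65 and 12.58 in injured cord. Every injured array stood more than 2 log2 units above every sham array on both, and the change of 2.99 ranked 5th and that of 2.87 ranked 7th among the rises of all 20380 probe sets.

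Hspb8, the partner of the co-chaperone BAG3 in clearing misfolded proteins, gave a different answer on each of its 3 probe sets. On 1417013_at it read 9.18, 9.25 and 9.25 in sham and 10.05, 9.79 and 9.87 in injured total RNA, a rise of 0.68 (SE 0.08, adjusted p = 9.57e-06). On 1456434_x_at the change was 0.18 and did not pass (adjusted p = 0.0688). On 1417014_at the values fell from 8.15, 8.23 and 8.15 to 7.94, 7.77 and 8.04, a change of -0.26 (adjusted p = 0.00968). All sham arrays lay above all injured arrays on that probe set, the opposite order to the first; without total injured replicate 2 this fall no longer passed, with the change at -0.18.

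Cryab codes for αB-crystallin, which is abundant in oligodendrocytes and astrocytes. On 1434369_a_at it read 11.97, 11.93 and 12.08 in sham and 11.98, 12.05 and 12.02 in injured total RNA. The difference was 0.02 with a 95% confidence interval of -0.14 to 0.18, and that of 1416455_a_at was 0.04 with an interval of -0.17 to 0.26. The injured arrays lay within or beside the range of the sham arrays on both. The third probe set, 1435837_at, was not above the absent-organism controls on any array and carries no information on level. After quantile normalization over all 12 arrays 1434369_a_at was called lower, with a change of -0.23.

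In the HSP70 system, Hspa1b, the stress-inducible HSP70, rose on each of its 3 probe sets. On 1452318_a_at it read 8.004, 8.09 and 8.23 in sham and 9.20, 8.71 and 8.89 in injured total RNA, a change of 0.83 (SE 0.14, adjusted p = 2.23e-04). The changes on 1427127_x_at and 1427126_at were 0.83 (adjusted p = 9.26e-05) and 0.67 (adjusted p = 6.47e-05). Injured replicate 1 was the highest array on all 3, and no injured array reached down to a sham array. Hspa1a, an almost identical neighbour on the chromosome, may share its signal with these probe sets; its own probe set 1452388_at rose by 0.44 (SE 0.09).

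Hspa8, the constitutive HSC70, was bright in all groups and changed little. Its brightest probe set, 1455789_x_at, read 13.55, 13.38 and 13.52 in sham and 13.56, 13.51 and 13.57 in injured total RNA, a difference of 0.06 (95% confidence interval -0.06 to 0.19). On 1420623_x_at and 1420622_a_at it was called higher, by 0.27 (adjusted p = 0.0029) and 0.23 (adjusted p = 0.0303). The call on 1420622_a_at was lost without total sham replicate 2, total injured replicate 1 or total injured replicate 3, with changes down to 0.15. The dim probe set 1431182_at fell from 7.64, 7.59 and 7.59 to 7.47, 7.33 and 7.27, a change of -0.25 (adjusted p = 0.00157).

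The partners of HSP70 moved by less than Hspa1b. Hsph1, an HSP110 protein that resets HSP70, rose on both probe sets, by 0.46 on 1423566_a_at (SE 0.08, adjusted p = 4e-04) and by 0.24 on 1425993_a_at (adjusted p = 0.00787), with no overlap of the groups on either. Dnajb1, the J-domain protein that starts the HSP70 cycle, rose on its brightest probe set 1416755_at and fell on 1416756_at. On the first it read 9.60, 9.78 and 9.61 in sham and 10.05, 9.83 and 9.96 in injured total RNA, a rise of 0.28 (SE 0.08, adjusted p = 0.00755). On the second it read 8.70, 8.75 and 8.75 in sham and 8.32, 8.14 and 8.40 in injured, a change of -0.45 (SE 0.08, adjusted p = 2.54e-04). The groups did not overlap on either, so the gene's direction depends on the probe set.

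Hsp90aa1 codes for the inducible HSP90α, and its 3 probe sets split in the same way. On 1426645_at it rose by 0.31 (SE 0.06, adjusted p = 3.4e-04), from 12.84, 12.79 and 12.91 to 13.15, 13.12 and 13.20. On 1437497_a_at it fell from 11.75, 11.65 and 11.72 to 11.40, 11.23 and 11.53, a change of -0.32 (SE 0.07, adjusted p = 0.0011). The brightest, 1438902_a_at, differed by 0.12 (95% confidence interval -0.01 to 0.25) and did not pass. Calls in both directions within a gene were found for 4 of the 10 members (Hspb8, Hspa8, Hsp90aa1 and Dnajb1), and for 18.4% of the 4956 genes on the array with 2 or more probe sets.

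**Figure D2:**
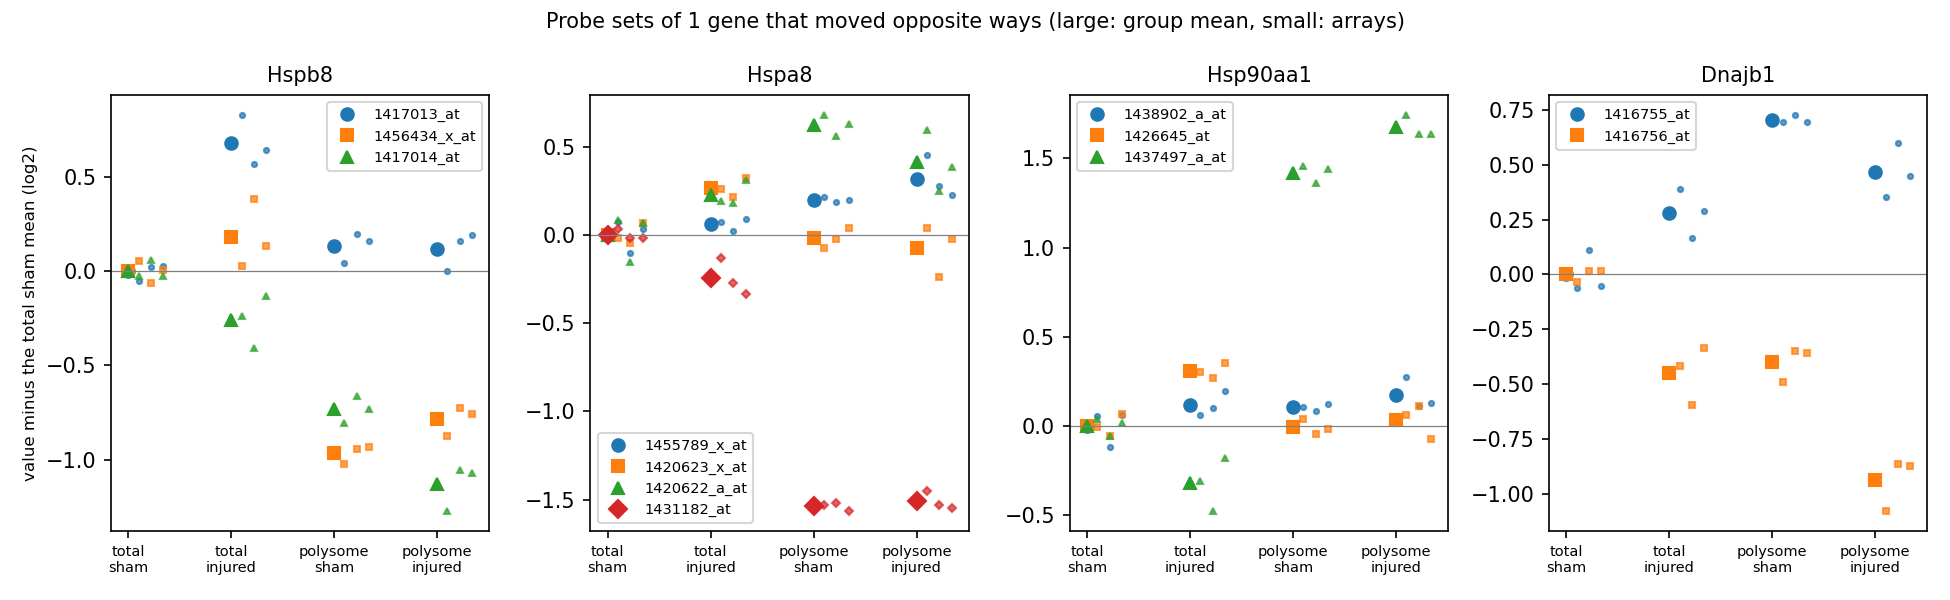
Value of each probe set minus its own mean in total sham (vertical axis, log2) for the 4 genes with calls in both directions, in the 4 groups along the horizontal axis; large marks are means of 3 arrays and small marks beside them the arrays. Hspb8 1417014_at, Hspa8 1431182_at, Hsp90aa1 1437497_a_at and Dnajb1 1416756_at lie below 0 in total injured, while at least 1 other probe set of each gene lies above it.

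The mitochondrial pair rose together in total RNA. Hspd1, which codes for HSP60, read 11.12, 11.24 and 11.22 in sham and 11.80, 11.72 and 11.70 in injured cord, a change of 0.55 (SE 0.06, adjusted p = 3.82e-06). Hspe1, which codes for its lid HSP10, rose by 0.39 on 1450668_s_at (SE 0.09, adjusted p = 0.00187), from 10.96, 10.96 and 10.999 to 11.49, 11.34 and 11.27. On the dimmer 1422579_at the difference was 0.30 (SE 0.13) and missed the threshold (adjusted p = 0.0657), although its groups did not overlap. The RefSeq table names 23 pseudogenes after Hspd1 and 7 after Hspe1, and whether their transcripts add to these signals was not tested.

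Bright probe sets as a whole were higher in injured total RNA, and this bears on how the smaller rises read. With all probe sets split into 10 equal classes by mean level, the median change was -0.10 in the dimmest class, -0.16 in the class at its lowest and 0.27 in the brightest, and 14 of the 25 members lay in the brightest. Against the median of their own class, 14 members were above and 11 below. Hspb1 exceeded it by 2.59 and 2.72, Hspa1b by 0.59 to 0.75, Hspb8 1417013_at by 0.43 and Hspd1 by 0.28. Hspa8 1420623_x_at and Hsp90aa1 1426645_at lay within 0.04 of it. After quantile normalization of the arrays, over all 12 or within each fraction, 7 probe sets were called higher in place of 14 (both of Hspb1, the 3 of Hspa1b, Hspb8 1417013_at and Hspd1). The 4 lower calls remained and others joined them, which made 5 lower over all 12 arrays and 6 within fractions. The rises of Hspa8, Hsph1, Dnajb1, Hsp90aa1 and Hspe1 no longer passed.

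**Figure D3:**
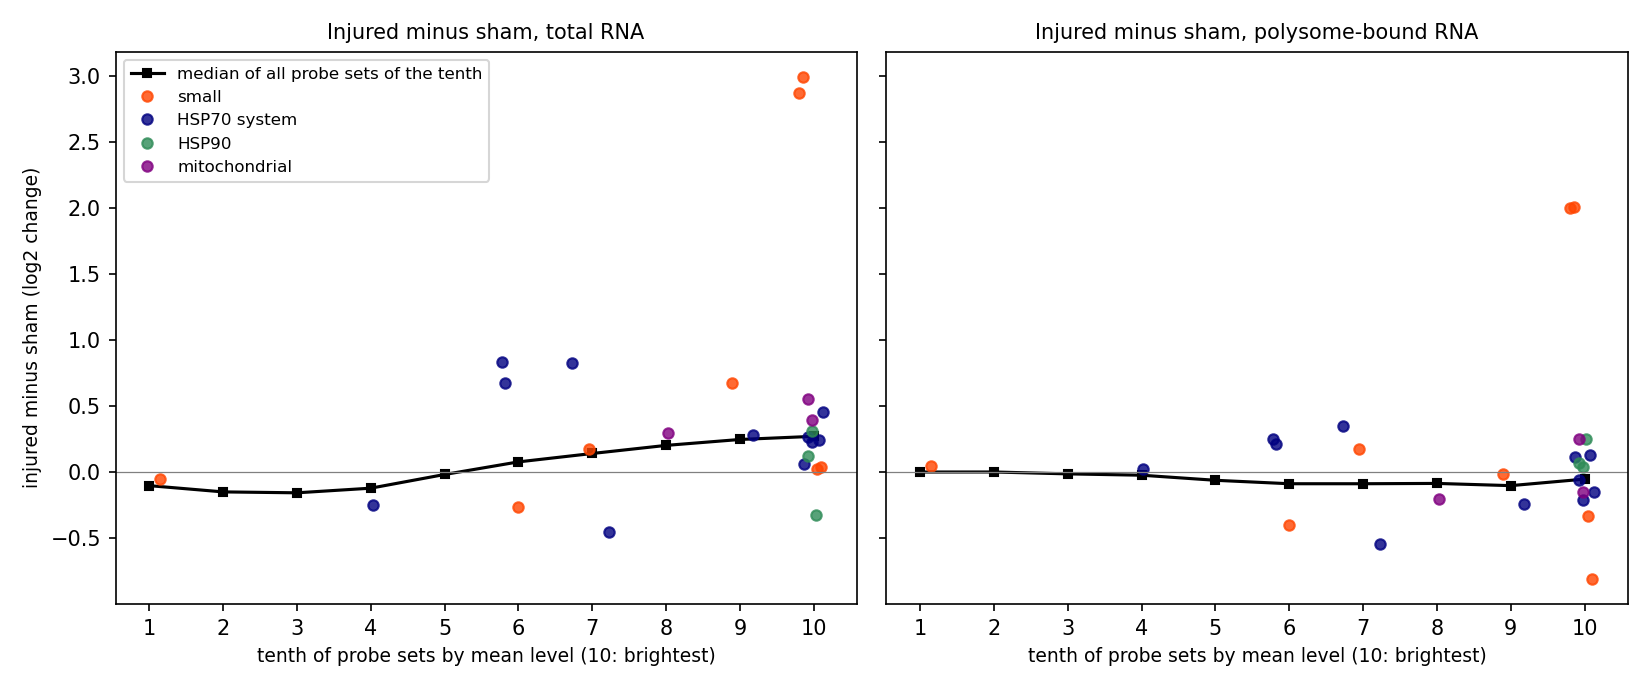
Injured minus sham log2 change (vertical axis) against the class of mean level, from 1 (dimmest) to 10 (brightest), in total RNA (left) and polysome-bound RNA (right); squares joined by a line are medians of all 2038 probe sets of a class and coloured points the 25 chaperone probe sets by group. In total RNA the line climbs from -0.16 in class 3 to 0.27 in class 10, and Hspb1, Hspa1b, Hspb8 1417013_at and Hspd1 stand above it.

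On polysomes, injury raised 4 of the 25 probe sets and lowered 5, and 16 did not pass. Hspb1 rose about 4-fold on both probe sets, Hspd1 and 1 probe set of Hsp90aa1 rose slightly, and Cryab, Dnajb1 and 1 probe set of Hspb8 fell. Over all probe sets 30.9% were called, 9.39% higher and 21.5% lower, against 36% of the members, and the median change was 0.04 for the members and -0.03 over all. Groups did not overlap for 11 members and for 40.2% of all probe sets. Of all calls as deposited 30.4% were higher, which became 49.1% after quantile normalization over 12 arrays and 55.9% after centring each array on its median. The members' 4 higher and 5 lower calls became 6 and 6 after quantile normalization over 12 arrays, 7 and 6 within fractions, and 9 and 4 after centring.

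**Figure D4:**
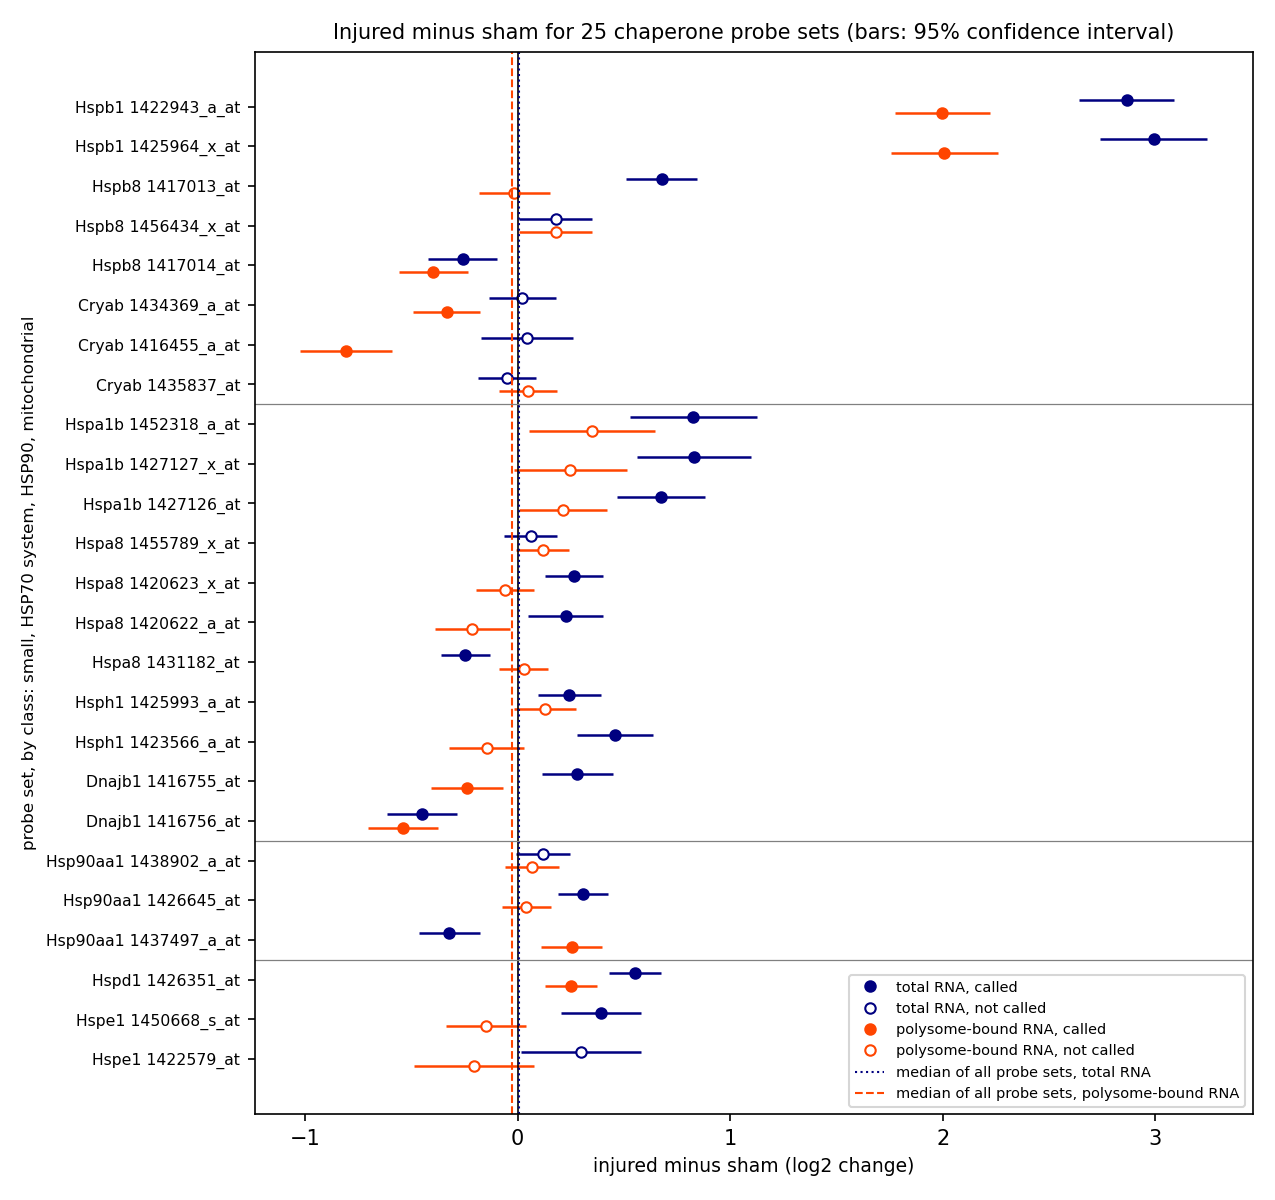
Injured minus sham log2 change (horizontal axis) with its 95% confidence interval for each of the 25 probe sets, ordered by class from small (top) to mitochondrial (bottom), in total RNA (blue) and polysome-bound RNA (orange); filled points passed the test and vertical lines mark the medians over all probe sets. Hspb1 is near 3 in total and near 2 on polysomes, and the HSP70 members that rose in total RNA have, as deposited, open points on polysomes or a fall.

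Hspb1 on 1422943_a_at read 10.86, 10.87 and 10.94 in polysome sham and 12.66, 13.04 and 12.96 in polysome injured, a change of 2.00 (SE 0.10, adjusted p = 2.2e-08). The change on 1425964_x_at was 2.01 (SE 0.12, adjusted p = 4.33e-08), and both ranked within the 9 largest rises on polysomes. The order of its groups from low to high was total sham, polysome sham, polysome injured and total injured, and no neighbouring groups in that order overlapped. Among the other small heat shock proteins, Hspb8 1417013_at, which rose in total RNA, read 9.27, 9.42 and 9.38 in polysome sham and 9.23, 9.39 and 9.42 in polysome injured, a difference of -0.02 (95% confidence interval -0.18 to 0.15). Hspb8 1417014_at fell, with a change of -0.40 (adjusted p = 0.00101).

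Cryab was lower on injured polysomes on both of its bright probe sets. On 1416455_a_at it read 11.58, 11.79 and 11.55 in polysome sham and 10.62, 10.76 and 11.13 in polysome injured, a change of -0.81 (SE 0.10, adjusted p = 3.55e-05), or 1.75-fold lower. On 1434369_a_at it read 12.17, 12.24 and 12.14 in sham and 11.69, 11.83 and 12.02 in injured, a change of -0.33 (SE 0.07, adjusted p = 0.00295). No injured array reached a sham array on either, and injured replicate 3 came closest. The first ranked 189th among the falls of all probe sets. The oligodendrocyte markers Mbp, Mag, Cnp and Mobp, whose transcripts mark cells that also make αB-crystallin, did not pass the test on polysomes, while Mog fell, with a change of -0.75 (SE 0.09, adjusted p = 3.52e-05). The mean log2 level of the 5 oligodendrocyte markers ran from 11.98 to 12.05 in polysome sham and from 11.77 to 11.95 in polysome injured; its part in the fall of Cryab was not tested.

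As deposited, none of the 11 probe sets of the HSP70 system was called higher on polysomes and 2 were called lower, against 8 and 2 in total RNA. This contrast depends on the scaling: 2 were higher on polysomes and 3 in total RNA after quantile normalization over 12 arrays, 3 in each fraction after quantile normalization within fractions, and 4 and 7 after centring. Hspa1b 1452318_a_at read 8.29, 8.25 and 8.58 in polysome sham and 8.96, 8.40 and 8.81 in polysome injured, a difference of 0.35 (SE 0.14) that missed the threshold (adjusted p = 0.0716). Injured replicate 2 fell among the sham arrays, and without it the difference was 0.51 and passed; without polysome sham replicate 3 it also passed. It passed as well under each of the 3 rescalings (0.41 to 0.45, adjusted p = 0.0391, 0.0293 and 0.0267) and with the replicate number as a block (adjusted p = 0.036). That block joins sham and injured arrays of equal number, which came from different mice. Hspa1b 1427126_at, at 0.21 as deposited (adjusted p = 0.114), passed under the same 3 rescalings (0.29 to 0.31), and 1427127_x_at passed after quantile normalization within fractions alone (0.35, adjusted p = 0.0442). Dnajb1 was lower on both probe sets, with changes of -0.54 on 1416756_at (SE 0.08, adjusted p = 1.01e-04) and -0.24 on 1416755_at (SE 0.08, adjusted p = 0.031). The latter call was lost without any 1 of 5 polysome arrays (sham replicates 1, 2 and 3, injured replicates 1 and 3), and after each of the 3 rescalings of the arrays (-0.14 to -0.15). No probe set of Hspa8 or Hsph1 passed as deposited, with differences from -0.21 (Hspa8 1420622_a_at, adjusted p = 0.0658) to 0.13 (Hsph1 1425993_a_at). Hspa8 1420622_a_at passed as a fall after both quantile normalizations (adjusted p = 0.0374 and 0.0339), with array weights (0.0219) and with the replicate block (0.0292). It did not pass after centring (-0.13, adjusted p = 0.289). The 4 higher calls after centring were not confined to Hspa1b, and the others belonged to Hspa8 or Hsph1. As deposited, the largest rises of these genes were 0.12 on Hspa8 1455789_x_at and 0.13 on Hsph1 1425993_a_at.

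Hsp90aa1 1437497_a_at, which fell in total RNA, rose on polysomes. It read 13.17, 13.07 and 13.15 in polysome sham and 13.45, 13.35 and 13.35 in polysome injured, a change of 0.25 (SE 0.07, adjusted p = 0.00935) that no longer passed after quantile normalization (0.19). The other 2 probe sets of Hsp90aa1 differed by 0.07 and 0.04 and did not pass. Hspd1 rose from 12.001, 12.01 and 12.08 to 12.31, 12.33 and 12.20, a change of 0.25 (SE 0.06, adjusted p = 0.00365). Hspe1 did not pass on polysomes; on 1450668_s_at its injured arrays read 11.17, 11.33 and 11.60 around a sham range of 11.48 to 11.54, a difference of -0.15 (95% confidence interval -0.34 to 0.04).

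Whether a change differed between the fractions was tested as an interaction, the change on polysomes minus the change in total RNA. It was below 0 for 15 members and above 0 for 2, and did not pass for 8; over all probe sets 45.4% were called, 15.5% above 0 and 29.9% below. The members' median was -0.35, against -0.04 over all probe sets and -0.32 over the brightest class. The lower calls included both probe sets of Hspb1 (-0.87 and -0.98, adjusted p = 4.25e-04 and 4.17e-04), Cryab 1416455_a_at (-0.85, adjusted p = 4.08e-04) and Hspb8 1417013_at (-0.69, adjusted p = 2.67e-04). For Hspb1 the rise was thus 2.87 in total and 2.00 on polysomes, while for Cryab 1416455_a_at it was 0.04 in total RNA, which did not pass, and -0.81 on polysomes. Hsp90aa1 1437497_a_at went the other way, with 0.58 (SE 0.10, adjusted p = 3.39e-04), and so did the dim Hspa8 1431182_at, with 0.27. These 6 probe sets were called in the same direction as deposited, after both quantile normalizations and after centring. The other 11 calls, among them those of Hspd1 (-0.30), Hsph1 1423566_a_at (-0.60), Dnajb1 1416755_at (-0.52), Hspe1 and Hspa1b 1427127_x_at (-0.58), did not pass under at least 1 of those scalings. Of all interaction calls 34.1% were above 0 as deposited, and 48.1% and 55.6% after quantile normalization over 12 arrays and centring.

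Within a condition, polysome-bound RNA was set against total RNA. As deposited, polysome arrays were lower as a whole, with a median difference of -0.42 over all probe sets in sham and in injured cord. The difference also depended on level. In sham cord the class medians ran from -0.59 in class 3 to 0.23 in the brightest, which had -0.10 in injured cord. That class held 14 of the 25 members, so a member is read against the median of its class as well as that of all. In sham cord 10 members were higher and 5 lower on polysomes, against 15.2% and 69.7% of all probe sets (84.8% called), with a median of 0.10. In injured cord 6 were higher and 16 lower, against 10.5% and 78.5% (88.9% called), with a median of -0.34. Calls above 0 made up 17.9% of all calls in sham and 11.8% in injured cord as deposited, and 64.2% and 71.5% after centring.

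**Figure D5:**
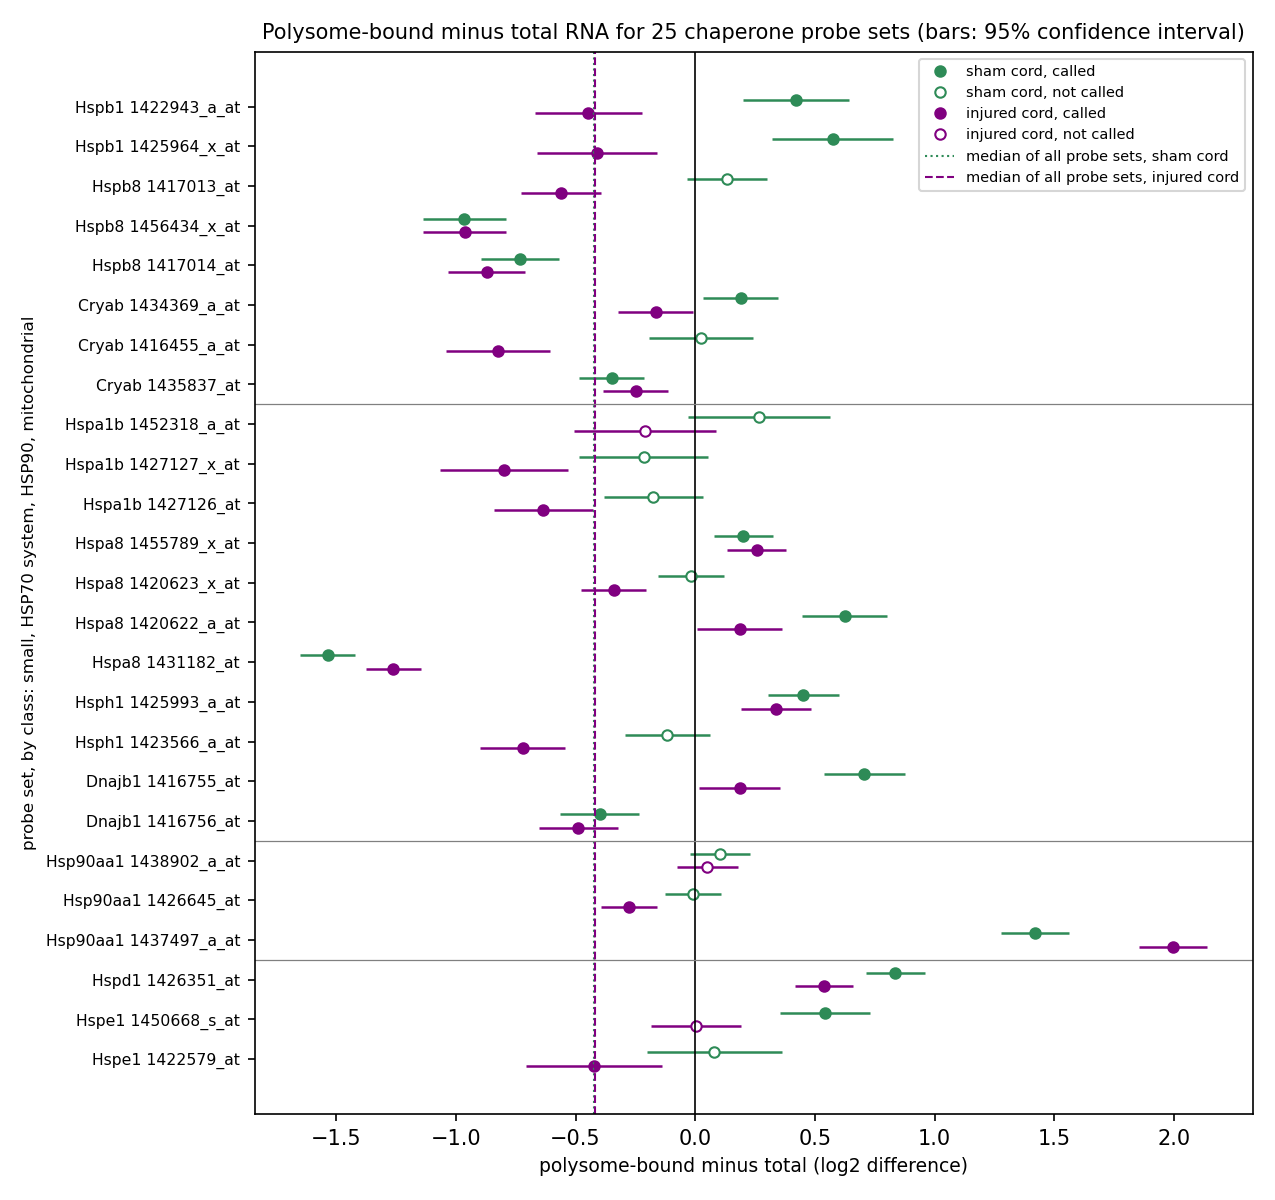
Polysome-bound minus total log2 difference (horizontal axis) with its 95% confidence interval for each of the 25 probe sets, by class from small (top) to mitochondrial (bottom), in sham (green) and injured cord (purple); filled points passed the test, and the vertical broken lines mark the median of all probe sets, -0.42 in both. Hsp90aa1 1437497_a_at is far to the right and Hspa8 1431182_at far to the left in both conditions, and most purple points lie left of the green ones.

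Hsp90aa1 1437497_a_at stood out, at 1.42 in sham (SE 0.07, adjusted p = 9.2e-11) and 2.00 in injured cord (SE 0.07, adjusted p = 2.05e-12). It read 11.65 to 11.75 in total sham and 13.07 to 13.17 in polysome sham. The gene's other 2 probe sets lay between -0.28 and 0.10 in the same comparisons, so this difference belongs to a single probe set. Hspd1 was higher on polysomes in both conditions, by 0.84 in sham (SE 0.06) and 0.54 in injured cord, and so was Dnajb1 1416755_at, by 0.71 and 0.19. Dnajb1 1416756_at was lower in both, at -0.40 and -0.49. Under all 4 scalings 3 more were higher in both: Hspa8 1455789_x_at (0.20 and 0.26) and 1420622_a_at (0.62 and 0.19), and Hsph1 1425993_a_at (0.45 and 0.34). Hspa8 1420623_x_at (-0.02 and -0.34) and Hsph1 1423566_a_at (-0.12 and -0.72) were called lower in injured cord only, as deposited. Hspa8 1431182_at was lower by far, at -1.54 and -1.26; it was above every absent control on the total arrays and not on the polysome arrays, so its polysome value is a background level.

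Hspb1 changed sides. On 1422943_a_at its polysome-bound RNA exceeded its total RNA by 0.42 in sham (SE 0.10, adjusted p = 0.00148) and fell short of it in injured cord, at -0.45 (SE 0.10, adjusted p = 8.81e-04); the second probe set gave 0.57 and -0.41. After centring, the injured values were 0.15 and 0.19 and did not pass, while the sham values were 0.91 and 1.07, so the direction in injured cord depends on the scaling, whereas the drop from sham to injured is the interaction given above. All 8 probe sets of the small heat shock proteins were called lower on polysomes in injured cord, between -0.17 and -0.96. Over all probe sets 78.5% were called lower. Of the 8, 3 lay above the median of all and 5 below it. Against the median of their own class of level, all but Cryab 1435837_at lay below, at -0.07 to -0.72. Cryab 1435837_at, at 0.13 from its class median, is at background. In sham cord 3 of the 8 were higher and 3 lower, and 5 and 2 after centring. Centring gave Hspb1, Hspb8 1417013_at and 2 of Cryab the opposite sign in injured cord. With the replicate number as a block over all 12 arrays, Hspa1b 1452318_a_at passed in sham cord (0.27, adjusted p = 0.0448 against 0.0859 without the block).

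Genes outside the 10 gave the wider setting. Of 110 other chaperone and co-chaperone genes listed, 95 were measured, each by its brightest probe set; 55 (57.9%) were higher and 4 (4.21%) lower in injured total RNA, against 30.6% and 27.0% of all probe sets. Their median was 0.24, and 70 of the 95 lay in the 3 brightest of the 10 classes of level, whose medians over all probe sets were 0.20, 0.25 and 0.27. On polysomes 11 (11.6%) were higher and 28 (29.5%) lower, against 9.39% and 21.5% of all, with a median of -0.06. The interaction was below 0 for 53 (55.8%) and above 0 for 2, against 29.9% and 15.5% of all. Its median over these genes was -0.33, beside -0.29, -0.35 and -0.32 over all probe sets of the 3 brightest classes. The J-domain proteins (14 of 19 higher in total, 3 higher and 6 lower on polysomes) included Dnajb6, Dnajb4 and Dnajc2, with total changes of 0.45, 0.45 and 0.44. The TRiC and prefoldin subunits, which fold actin and tubulin, had 11 of 13 higher in total RNA, such as Cct8 (0.51), Cct2 (0.47) and Cct5 (0.38), and 2 higher and 2 lower on polysomes. Among 16 chaperones of the endoplasmic reticulum 10 rose in total RNA and 6 fell on polysomes; Pdia3, a disulfide isomerase, had 0.32 in total and -0.71 on polysomes, and Dnajc3 had 0.69 and -0.24.

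Among the 95 genes Fkbp5, in the list of HSP90 and its co-chaperones, had the largest change in both fractions. It is a steroid receptor co-chaperone that glucocorticoids induce, and it rose by 2.15 in total RNA (SE 0.13, adjusted p = 3.33e-08) and 1.30 on polysomes (SE 0.13, adjusted p = 6.53e-06), whereas Cdc37, which brings kinases to HSP90, had -0.13 (adjusted p = 0.172) and -0.73 (adjusted p = 1.41e-05). Of the 13 measured in that list 3 rose in total RNA, and 1 rose and 4 fell on polysomes. Bag3, the partner of HSPB8, rose in both fractions, by 0.42 and 0.50, in a list of 7 where 5 rose in total and 1 rose and 2 fell on polysomes. Other mitochondrial chaperones had 7 of 12 higher in total, led by the protease subunit Clpx (0.67), and 1 higher and 4 lower on polysomes, Hscb among the latter at -0.50. The other HSP70 genes had 4 of 7 higher and 2 lower in total, and 2 higher and 1 lower on polysomes, with Hspa2 higher in both (0.48 and 0.27). Of the 5 genes measured in the list of other small heat shock proteins none rose and 2 fell in total RNA. On polysomes 1 fell, Hspb11 (-0.57), and it was the only 1 of the 5 above the absent controls on all arrays.

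Of 6 heat shock factors and regulators listed, 3 were measured, and the gene of heat shock factor 1, Hsf1, was not among them. Hsf2, a heat shock factor, was called higher in total RNA at 0.11 (SE 0.04, adjusted p = 0.0324), but was not above every absent control on any array. Hsf4, another factor of the family, had -0.13 in total RNA (adjusted p = 0.067) and -0.26 on polysomes (SE 0.06, adjusted p = 0.00383). Hsbp1, which binds and restrains heat shock factor 1, had 0.19 in total RNA (adjusted p = 0.231) and -0.78 on polysomes (SE 0.14, adjusted p = 4.81e-04).

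Markers of several cell types also moved with injury. Of 6 astrocyte markers, 5 rose in total RNA (Gfap by 0.76, SE 0.06), while on polysomes 3 rose and 2 fell (Aqp4 with a change of -1.21). The mean log2 level of the list ran from 9.99 to 10.10 in total sham and was 10.58 on all 3 total injured arrays, while on polysomes it ran from 9.32 to 9.49 in sham and from 9.34 to 9.46 in injured cord. Of 8 neutrophil markers, 2 rose in total RNA and 3 on polysomes, S100a9 by 1.59 and 0.95, while 4 fell in total RNA and 2 on polysomes. Of 5 microglial markers 3 fell and none rose in each fraction. Both measured Schwann cell markers rose in total RNA (Pmp22 by 0.78 and Ncmap by 0.79), with interactions of -1.19 and -0.70, and Pmp22 fell on polysomes (-0.40). Of 6 monocyte and macrophage markers 2 rose in total RNA, and 1 rose and 1 fell on polysomes; Cd14 rose by 2.27 and 0.97. The part of these markers in the changes of the chaperones was not tested.

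The genes most like 4 of the members across arrays were found by the Pearson correlation of log2 values over the 12 arrays, a description in which the 4 groups and the scaling of the arrays are shared. Each member was represented by its brightest probe set alone, so the matches belong to that probe set. Hspb1 was closest to Gadd45g (r = 0.988), Mcl1 (0.987) and Stat3 (0.985), which rose by 1.42, 1.01 and 1.19 in total RNA and by 1.03, 0.60 and 1.07 on polysomes. Hspd1 was closest to Hdlbp (0.992), Sart1 (0.991) and Anxa7 (0.991). Dnajb1 was closest to Btbd10 (0.970), to the dimmer of the 2 probe sets of Cct7 (0.967), a subunit of the TRiC chaperonin, and to Coro1b (0.964), with changes of 0.20, 0.28 and 0.21 in total RNA and -0.18, -0.22 and -0.13 on polysomes. The brightest probe set of Cct7, used in the list above, was higher in both fractions (0.29 and 0.19). Hsp90aa1 had no match as close, and its nearest were Cdh2 (0.907), App (0.865) and Sez6l2 (0.863). The probe set used for it, 1438902_a_at, varied little, from 12.73 to 13.12 over the 12 arrays.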

How the data were processed

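The deposited table gives 1 value per probe set and array for 12 Affymetrix arrays, deposited on the log2 scale as read from the values, which run from 5.26 to 14.65. How the authors corrected background and normalized is not given in the sources used here, and arrays were used as deposited. Of 22690 probe sets, 20380 named a single gene outside the controls and were tested, 691 named several and 1606 none. Members and gene lists were chosen with earlier results of these data known. Every probe set of the 10 members was named. Of each other chaperone list, up to 3 called genes with the lowest adjusted p were named, and every measured heat shock factor.

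Group means of the 4 groups were fitted over all arrays with limma 3.58.1 in R 4.3.3 (lmFit, eBayes with an intensity trend, no filter on level, 8 residual degrees of freedom). Tests were two-sided, and p-values were Benjamini-Hochberg adjusted over all 20380 probe sets in each of 5 comparisons, with a threshold of 0.05. The procedure was tested on simulated data. Intervals are 95%, errors of changes are limma standard errors, and the number of arrays limits the precision. The alternatives were a filter at the 25th percentile, 2 quantile normalizations, centring, no trend, array weights, the replicate number as a block, each gene's brightest probe set alone, and leaving out each array.

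The labels do not say that equal replicate numbers mark the same cord. Deviations of equal-numbered arrays from their group means correlated at 0.165, 0.148 and 0.120 between total sham and polysome sham, and at -0.119, 0.033 and 0.044 between total injured and polysome injured. By the rule used (every correlation over 0.1), the sham numbers pair the arrays and the injured numbers do not. The reported values come from the fit without a block. The block alternative used the replicate number over all 12 arrays, and so also joined sham and injured arrays of equal number. The deviations of those arrays correlated at 0.06, -0.08 and -0.22 on polysomes and at -0.04, 0.065 and -0.02 in total RNA.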

Additional observations from a re-analysis of the deposited data

Results flagged for a closer look

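The change after injury differed between polysome-bound and total RNA for 17 of the 25 chaperone probe sets, by limma's interaction term (change on polysomes minus change in total RNA, Benjamini-Hochberg adjusted p under 0.05). It was below 0 for 15 and above 0 for 2, against 29.9% and 15.5% of all probe sets (45.4% called), and the members' median of -0.35 stood beside -0.32 for the brightest class of probe sets. After quantile normalization over 12 arrays 9 were called, 7 of them below 0, and within fractions 7 and 5. Among the small heat shock proteins the difference was -0.87 and -0.98 for Hspb1 1422943_a_at and 1425964_x_at, -0.69 for Hspb8 1417013_at, and -0.35 and -0.85 for Cryab 1434369_a_at and 1416455_a_at. In the HSP70 system it was -0.58 and -0.46 for Hspa1b 1427127_x_at and 1427126_at, and -0.32, -0.44 and 0.27 for Hspa8 1420623_x_at, 1420622_a_at and 1431182_at. Hsph1 1423566_a_at had -0.60 and Dnajb1 1416755_at had -0.52. The HSP90 gene Hsp90aa1 had -0.27 on 1426645_at and 0.58 on 1437497_a_at. For the mitochondrial pair the difference was -0.30 for Hspd1, and -0.54 and -0.50 for Hspe1 1450668_s_at and 1422579_at. The last of these (adjusted p = 0.0399) passed in 3 of the 12 fits that left out an array. Hspa8 1431182_at was not above the absent controls on polysome arrays, so its difference reflects the total arrays.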

How the results depend on the processing

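The members' counts, and in some comparisons the direction that most calls took, depended on how the arrays were scaled. Quantile normalization over 12 arrays left 7 members higher in total RNA (14 as deposited), 9 called and 7 below 0 in the interaction (17 and 15), and 10 lower on polysomes in injured cord (16); within fractions it left 7 higher in total RNA, gave 7 higher on polysomes after injury (4), and left 7 called and 5 below 0 in the interaction. Centring gave 19 higher and 3 lower on polysomes in sham cord (10 and 5), and 13 higher and 3 lower in injured cord (6 and 16), so that most calls there were higher in place of lower; on polysomes after injury the 4 higher and 5 lower calls became 9 and 4. Over all probe sets, calls in total RNA went from 11746 to 7379 and 7098 under the 2 quantile normalizations, and those of the interaction from 9248 to 5939 and 5923. Leaving out each array in turn gave 4 to 7 members higher on polysomes after injury, 7 without polysome injured replicate 2.

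Some single changes took the opposite sign. In total RNA, quantile normalization over 12 arrays gave -0.23 for Cryab 1434369_a_at, -0.0401 for Hspa8 1420622_a_at and -0.014 for Hsph1 1425993_a_at; within fractions it gave -0.24, -0.0412 and -0.0135 for these, and -0.18 for Hspa8 1455789_x_at. On polysomes against total, quantile normalization over 12 arrays gave in sham cord -0.0041, -0.22 and 0.17 for Cryab 1434369_a_at, 1416455_a_at and 1435837_at and 0.37 for Hspa1b 1427126_at, and in injured cord 0.17 for Cryab 1435837_at and 0.0577 for Dnajb1 1416756_at. Centring gave in sham cord 0.15 for Cryab 1435837_at, 0.32 for Hspa1b 1427126_at, 0.48 for Hspa8 1420623_x_at, 0.48 for Hsp90aa1 1426645_at, 0.38 for Hsph1 1423566_a_at and 0.10 for Dnajb1 1416756_at. In injured cord it gave 0.15 and 0.19 for Hspb1, 0.0395 for Hspb8 1417013_at, 0.44 and 0.35 for Cryab 1434369_a_at and 1435837_at, 0.39 for Hspa1b 1452318_a_at, 0.26 for Hspa8 1420623_x_at, 0.32 for Hsp90aa1 1426645_at, 0.11 for Dnajb1 1416756_at and 0.18 for Hspe1 1422579_at. The cause was not tested.

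With the replicate number as a fixed block, Hspa1b 1452318_a_at passed on polysomes after injury (adjusted p = 0.036), in the interaction (0.0311) and in sham cord between fractions (0.0448), and Hspa8 1420622_a_at passed on polysomes after injury (0.0292); no other call of a member changed. With the cord as a random block the estimated correlation was -0.0162 and no call of a member changed. Array weights were lowest for polysome injured replicates 1 (0.262) and 2 (0.468). With 2 heat shock units in place of 3, the motif was in the windows of 6 member genes in place of 3. Signal near the absent controls limits Cryab 1435837_at on all arrays and Hspa8 1431182_at on polysome arrays.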
